A study of Rattus norvegicus with 12 samples.

Results

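Dcn (ENSRNOG00000004554), Lum (ENSRNOG00000004610), Mgp (ENSRNOG00000005695) and Igfbp7 (ENSRNOG00000002050) are 4 genes of secreted matrix and matrix-bound proteins, and their RNA was followed here through all 12 libraries of an RNA-seq experiment in NRK cells, a line derived from normal rat kidney. They were found by pairing symbol with Ensembl identifier in the gene tables that accompany the study and then matching the identifier to the deposited read counts, which cover 20842 genes. All 4 passed the filter on low counts, which left 13141 genes for testing. The genes were selected on the fold changes between genotypes in these same libraries, so those differences are given as a description, with no p-value.

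The experiment compared wild-type (WT) cells with cells in which CRISPR-Cas9 had been used to knock out VAMP7 (VAMP7KO) or ATG5 (ATG5KO), to ask how the loss of either protein alters gene expression. VAMP7 is a vesicle fusion protein (SNARE) of the late endosomal route of secretion, and ATG5 is needed to form autophagosomes. Each genotype had 4 replicates, each grown in its own dish, and no group received a treatment. The guide RNAs were carried on a plasmid that also encodes Cas9 and GFP, GFP-positive cells were sorted singly, so a knockout line can descend from 1 cell, and an effect of the knockout cannot be told apart from a difference between such clones. The labels call the cells epithelial, whereas the study elsewhere speaks of ATG5KO fibroblasts.

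Decorin (Dcn) and lumican (Lum) are small leucine-rich proteoglycans, which bind collagen fibrils and set their spacing, and decorin also binds growth factors such as TGF-beta. Matrix Gla protein (Mgp) is a small protein whose glutamate residues are carboxylated with vitamin K, and it restrains calcification and binds bone morphogenetic proteins (BMPs). Igfbp7 is a secreted relative of the insulin-like growth factor (IGF) binding proteins that is deposited in basement membranes. In tissue, decorin and lumican are mainly products of fibroblasts.

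Between 21090858 and 31525111 counts were recorded per library. Levels are given as CPM, the reads of a gene scaled to a common library size after TMM normalization. A gene with at most 3 counts in a library is said to be at the floor there, which corresponds to 0.0986 to 0.139 CPM. The targeted gene Vamp7 was read at 108.7, 109.3, 110.7 and 115.8 CPM in WT libraries and at 41.6, 42.2, 49.4 and 51.9 CPM in VAMP7KO libraries (log2 fold change -1.27, SE 0.0772, quasi-likelihood test of edgeR, Benjamini-Hochberg adjusted p = 6.08e-06), so its transcript was lower but still present in the knockout. Atg5 could not be checked, because the tables used here do not pair its symbol with an identifier. The libraries of each genotype separated into replicates 1 and 2 on one side and replicates 3 and 4 on the other. This split was recognised in the values and no label names it. Replicates 1 and 2 of WT lay above replicates 3 and 4 without overlap in 41.6% of the genes tested and below them in 40.4%, with 38.9% and 38.2% in VAMP7KO and 40.2% and 35.2% in ATG5KO, so every level below is given by replicate.

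Dcn was close to absent in WT cells and present at a low level in both knockouts. WT replicates 1 to 4 held 2, 0, 6 and 0 counts. VAMP7KO replicates held 52, 43, 71 and 62 counts, or 1.74, 1.95, 2.56 and 2.55 CPM, and ATG5KO replicates held 14, 21, 27 and 19 counts, or 0.650, 0.728, 0.970 and 0.875 CPM. The order of the genotypes was VAMP7KO above ATG5KO above WT, and no library of one genotype overlapped another. Of the genes tested, 24 (0.183%) had every VAMP7KO library above every ATG5KO library and every ATG5KO library above every WT library, and Dcn is one of them. The genes studied here were selected on differences between these genotypes. This share and those given below for Lum and Mgp therefore do not measure how unusual a pattern is. Group means were 2.199 ± 0.422 CPM (SD, n = 4) in VAMP7KO, 0.806 ± 0.144 in ATG5KO and 0.0662 ± 0.0929 in WT.

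On the fitted scale the log2 fold change of Dcn against WT was 4.97 (SE 0.545) in VAMP7KO and 3.53 (SE 0.585) in ATG5KO. The WT group held 8 counts in all, which sets the precision. The ratio of pooled counts, scaled for depth, was 32.0 with a 95% counting interval of 16.0 to 75.1 for VAMP7KO, and 11.9 with an interval of 5.74 to 28.4 for ATG5KO. WT replicate 3 held 6 of the 8 counts. Without it all WT libraries were at the floor, and Dcn was at least 21.0-fold higher in VAMP7KO and at least 7.74-fold higher in ATG5KO. Between the knockouts the log2 fold change was 1.45 (SE 0.398) in favour of VAMP7KO, and the 95% counting interval of the pooled ratio was 2.09 to 3.53. Intervals and floors cover counting error only. The intervals come from counts pooled over the replicates of a genotype, so they leave out the spread between replicates. PCR copies of one molecule were not marked and cannot be removed.

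Lum had the same order of genotypes as Dcn but lay well above the floor everywhere. WT replicates 1 to 4 held 171, 177, 41 and 48 counts, or 5.78, 6.13, 1.35 and 1.71 CPM. VAMP7KO replicates were at 263.0, 314.6, 48.4 and 45.4 CPM, from 7870, 6953, 1339 and 1104 counts. ATG5KO replicates were at 122.0, 119.1, 15.7 and 18.5 CPM, from 2626, 3434, 437 and 402 counts. Every knockout library was above every WT library, as in 6.8% of the genes tested for VAMP7KO and 14.9% for ATG5KO (8.74% and 13.3% lay below without overlap). VAMP7KO and ATG5KO overlapped when all 8 libraries were pooled, since replicates 3 and 4 of VAMP7KO lay below replicates 1 and 2 of ATG5KO, but within replicates 1 and 2 and within replicates 3 and 4 the order was VAMP7KO above ATG5KO above WT with no overlap, a pattern shared with 0.769% of the genes tested.

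The fitted log2 fold change of Lum was 5.36 (SE 0.172) for VAMP7KO against WT, 4.02 (SE 0.168) for ATG5KO against WT and 1.35 (SE 0.136) for VAMP7KO against ATG5KO. All 4 VAMP7KO libraries exceeded the ATG5KO library of the same replicate number. The group means (3.74 ± 2.56 CPM in WT, 167.8 ± 141.2 in VAMP7KO and 68.8 ± 59.7 in ATG5KO, SD, n = 4) carry an SD almost as large as the mean, and replicates 1 and 2 lay above replicates 3 and 4 in every genotype. Lum was 3.89-fold higher in replicates 1 and 2 than in replicates 3 and 4 in WT, 6.16-fold in VAMP7KO and 7.05-fold in ATG5KO. A ratio of at least 3 in each of the 3 genotypes was found for 253 genes (1.93%).

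**Figure D1:**
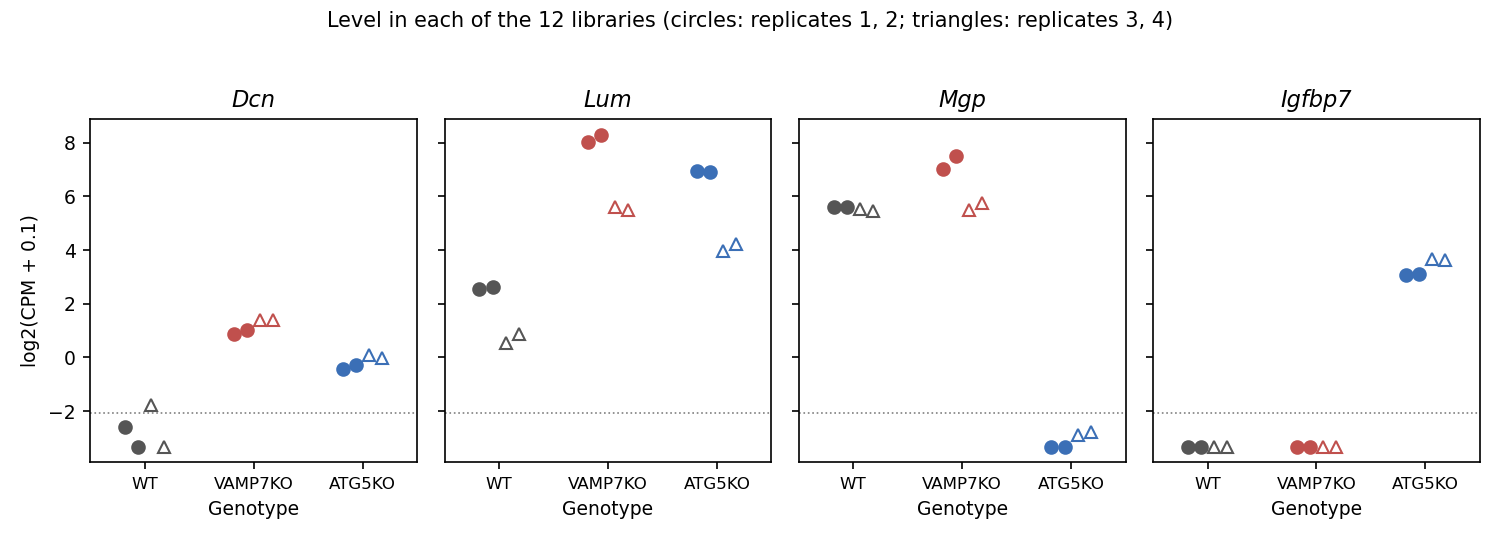
Level of Dcn, Lum, Mgp and Igfbp7 in each of the 12 libraries as log2(CPM + 0.1), by genotype; circles are replicates 1 and 2, triangles are replicates 3 and 4, and the dotted line is the highest floor of any library (0.139 CPM). Dcn and Lum are higher in both knockouts than in WT, Mgp is at the floor in ATG5KO, and Igfbp7 is above the floor in ATG5KO and in neither of the other genotypes.

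Dcn and Lum are neighbours on rat chromosome 7 (band 7q13). In the RefSeq annotation of GRCr8 the order of protein-coding genes there is Plekhg7, Btg1, Dcn, Lum, Kera, Epyc and Ccer1, where Kera (keratocan) and Epyc (epiphycan) encode further small leucine-rich proteoglycans. Kera and Epyc have no identifier in the tables used here and were not analysed. A long non-coding RNA is annotated across the start of Dcn in that assembly, and the strand setting of the authors' counting is not given in the sources used here, so reads of this RNA cannot be told apart from those of Dcn. Over the 12 libraries the log2 levels of Dcn and Lum had a Pearson correlation of 0.775, a value that reflects the genotypes and the replicate split that the libraries share.

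The neighbours did not share the difference between replicates. In VAMP7KO, Dcn was 1.39-fold higher in replicates 3 and 4 than in replicates 1 and 2, whereas Lum was 6.16-fold lower. The number of Lum counts per Dcn count, which is read here between libraries only since it is not corrected for transcript length, was 151.3 and 161.7 in VAMP7KO replicates 1 and 2 and 187.6 and 163.5 in the same replicates of ATG5KO. It was 18.9 and 17.8 in VAMP7KO replicates 3 and 4 and 16.2 and 21.2 in those of ATG5KO. The ratio was thus higher in every library of replicates 1 and 2 than in any of replicates 3 and 4. The knockouts overlapped in replicates 3 and 4. In replicates 1 and 2 both ATG5KO values lay above both VAMP7KO values, the nearest being 163.5 and 161.7. The ATG5KO values there rest on only 14 and 21 Dcn counts, so no difference between the knockouts is read from them. In WT the ratio could be formed above the floor only for replicate 3, where it was 6.83, from 6 Dcn counts.

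The promoter of Lum is shown because, of the 4 genes, its RNA differed most between replicates of one genotype among groups above the floor. The 250 bases before its start in GRCr8, chr7:34245456-34245705 on the plus strand, are given by RefSeq as follows, with a CCAAT box (read on the opposite strand as ATTGG) in capitals.
Lum: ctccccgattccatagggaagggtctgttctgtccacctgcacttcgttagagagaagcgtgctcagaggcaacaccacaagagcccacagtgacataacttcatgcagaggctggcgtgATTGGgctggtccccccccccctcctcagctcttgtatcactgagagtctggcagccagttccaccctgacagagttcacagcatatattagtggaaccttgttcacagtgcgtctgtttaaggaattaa
This window has a GC content of 52.8% and 5 CpG sites, near the median of all 33469 rat promoters of this length (51.2% and 5). It holds 1 CCAAT match, found in 34.0% of promoters on either strand, and 1 E-box (CANNTG), found in 65.5%. It holds no GC box (GGGCGG), no TATAAA and no AP-1 site (TGANTCA), which occur in 30.5%, 12.9% and 6.34% of promoters.

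Mgp differed from the proteoglycan genes in that it was expressed in WT cells and lost from ATG5KO cells. WT replicates 1 to 4 were at 49.1, 48.5, 45.9 and 43.9 CPM, from 1231 to 1452 counts. ATG5KO replicates held 0, 0, 1 and 1 counts. The ATG5KO mean was therefore under the floor, and Mgp was at least 383-fold lower in ATG5KO than in WT and at least 836-fold lower than in VAMP7KO. The latter bound rests on the mean of VAMP7KO and was 1277-fold within replicates 1 and 2 and 399.0-fold within replicates 3 and 4. At the floor in every ATG5KO library and above it in every WT and VAMP7KO library were 48 genes (0.365%), Mgp among them.

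In VAMP7KO the level of Mgp depended on the replicate. Replicates 1 and 2 were at 128.3 and 182.5 CPM, above every WT library, and replicates 3 and 4 were at 44.9 and 53.3 CPM, within or just above the WT range. The fitted log2 fold change against WT over all replicates was 0.90 (SE 0.280), with the VAMP7KO library above the WT library of its number in 3 of 4 pairs. Within replicates 1 and 2 it was 1.64 (SE 0.118) and within replicates 3 and 4 it was 0.12 (SE 0.0770). The mean of 102.2 ± 65.3 CPM (SD, n = 4) describes neither pair. The WT level was 46.9 ± 2.39 CPM, with 48.8 in replicates 1 and 2 and 44.9 in replicates 3 and 4.

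Igfbp7 was read in ATG5KO cells alone. No count was recorded in any of the 4 WT or the 4 VAMP7KO libraries, which allows up to 3 counts in each. ATG5KO replicates 1 to 4 held 179, 243, 355 and 267 counts, or 8.32, 8.43, 12.8 and 12.3 CPM, with a mean of 10.4 ± 2.41 (SD, n = 4). Igfbp7 was thus at least 101.7-fold higher in ATG5KO than in WT and at least 89.4-fold higher than in VAMP7KO. Between VAMP7KO and WT there is no fold to give. Among all genes tested, 15.3% were higher in every ATG5KO than in every VAMP7KO library, and 13.1% were lower. Of the genes tested, 9 (0.0685%) had no count in any WT or VAMP7KO library. Such genes, Igfbp7 among them, passed the filter on low counts only through their ATG5KO counts. The share is therefore shaped by the filter and does not measure how unusual the pattern is. Replicates 3 and 4 of ATG5KO were 1.50-fold above replicates 1 and 2, the opposite direction to Lum in the same libraries.

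The promoter of Igfbp7 is shown because its RNA had no count in 8 libraries and at least 179 in the other 4. In GRCr8 the 250 bases before its start lie at chr14:31091486-31091735 on the plus strand, from RefSeq, with GC boxes (GGGCGG or its reverse complement) in capitals.
Igfbp7: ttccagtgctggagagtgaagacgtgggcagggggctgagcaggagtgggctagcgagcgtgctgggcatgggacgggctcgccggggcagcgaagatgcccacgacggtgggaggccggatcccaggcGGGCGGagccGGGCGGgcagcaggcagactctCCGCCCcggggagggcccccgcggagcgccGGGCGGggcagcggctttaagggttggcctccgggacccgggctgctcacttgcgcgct
Its GC content is 74.4%, which 3.88% of rat promoters reach, and it holds 26 CpG sites, which 8.64% reach. It holds 4 GC boxes and 1 E-box, and no CCAAT box, TATAAA or AP-1 match. A match of letters is a description of the window and not a bound site. No RefSeq promoter for Dcn or Mgp was in the table used here.

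Since the genes were selected on these contrasts, whether each was called restates the selection, and the counts of calls are given only beside those over all genes, with nothing read from them. In VAMP7KO against WT, edgeR's quasi-likelihood test at an adjusted p under 0.05 called 22.9% of the genes tested (10.5% higher and 12.3% lower), and 3 of the 4 genes studied here, all higher (Dcn, Lum and Mgp). In ATG5KO against WT it called 46.3% (23.6% higher and 22.7% lower), and all 4 (Mgp lower, the others higher). Between the knockouts it called 44.9% (21.3% higher and 23.6% lower in VAMP7KO), and all 4 (Igfbp7 lower in VAMP7KO, the others higher). Both comparisons with WT use the same 4 WT libraries. The call of Mgp in VAMP7KO was lost in 4 of 8 alternative settings and in 8 of 12 fits that each left out 1 library (replicates 1 and 2 of WT, replicates 1 and 2 of VAMP7KO and each ATG5KO library), so 2 of the 4 genes were called there in all fits. Without the replicate number as a block, Dcn and Lum were not called between the knockouts, where 2 of the 4 genes were then called, and the call of Dcn was also lost without VAMP7KO replicate 2 and without VAMP7KO replicate 4.

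**Figure D2:**
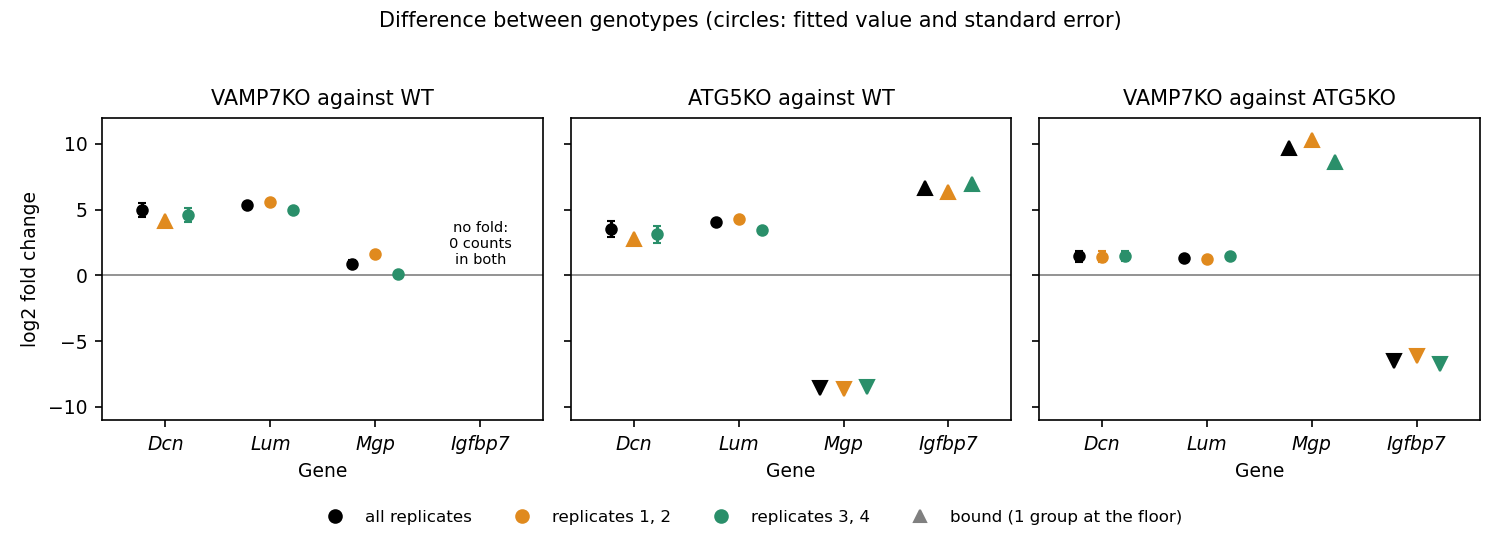
Log2 fold change of each gene in the 3 comparisons of genotypes, over all replicates (black), replicates 1 and 2 (orange) and replicates 3 and 4 (green). Circles with bars are fitted values with the standard error and triangles are bounds where 1 group is at the floor, pointing away from 0; Mgp in VAMP7KO against WT is the fitted value that differs most between the replicate pairs (1.64 and 0.12).

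The dependence on replicate was then tested as the interaction of genotype with the replicate split, in the quasi-likelihood test of edgeR, adjusted by Benjamini-Hochberg over all genes. The split was seen in these values before it was tested, so the p-values are not independent of the observation. The effect of VAMP7KO on Mgp was lower in replicates 3 and 4 than in replicates 1 and 2 (log2 difference -1.54, SE 0.179, adjusted p = 1.45e-05). The effect of VAMP7KO on Lum was lower too (log2 difference -0.66, SE 0.217, adjusted p = 0.0458), as was that of ATG5KO on Lum (log2 difference -0.86, SE 0.222, adjusted p = 0.00739). The Lum value for VAMP7KO missed the threshold with DESeq2's size factors (adjusted p = 0.0522) and in 7 of 12 fits that left out 1 library (each WT library, or replicate 2, 3 or 4 of VAMP7KO), and that for ATG5KO without WT replicate 4.

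For Dcn the interaction could not be resolved at this depth, with log2 differences of -0.98 (SE 1.24, adjusted p = 0.653) for VAMP7KO and -1.05 (SE 1.27, adjusted p = 0.585) for ATG5KO, and both changed sign without WT replicate 3. No value is given for Igfbp7, or for Mgp in ATG5KO, where a group was at the floor. Among the genes given a value, the test called Lum and Mgp for VAMP7KO, both lower, but not Dcn. The share called over all genes was 16.5% there (8.97% higher and 7.5% lower). For ATG5KO it called Lum, lower, but not Dcn, against 28.9% of all genes (14.4% higher and 14.5% lower). Both knockouts kept Lum far above WT in either pair of replicates. In replicates 1 and 2 the log2 fold change was 5.59 (SE 0.112) for VAMP7KO and 4.32 (SE 0.110) for ATG5KO, and in replicates 3 and 4 it was 4.94 (SE 0.131) and 3.48 (SE 0.147).

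**Figure D3:**
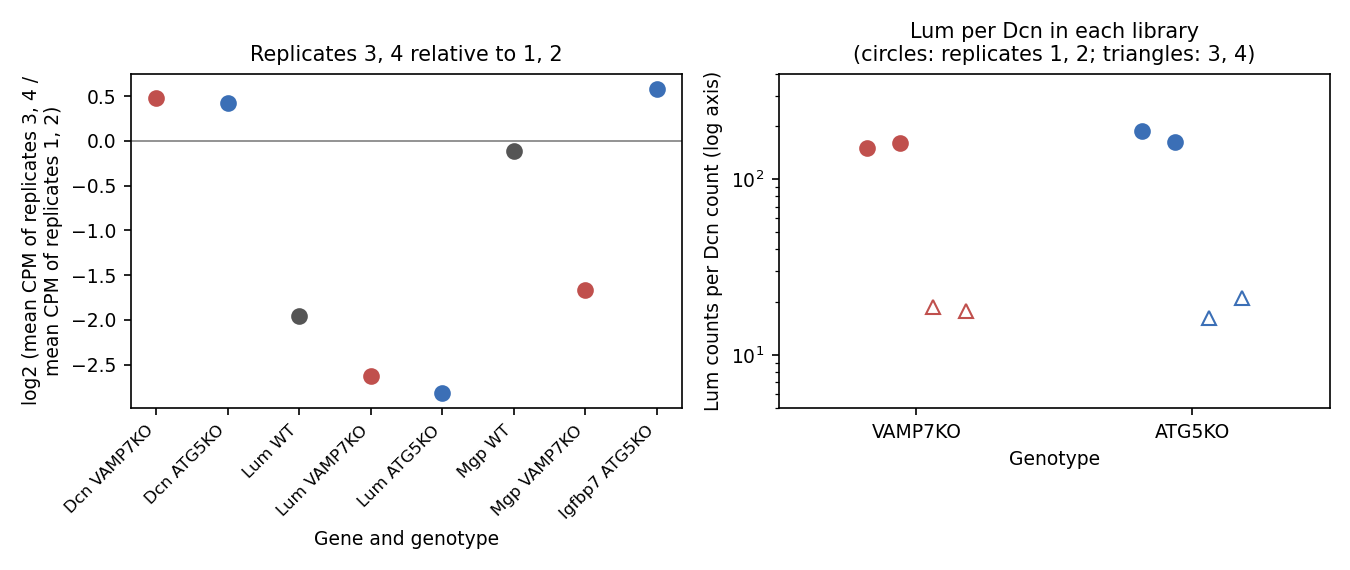
Left, log2 ratio of the mean CPM of replicates 3 and 4 to that of replicates 1 and 2, for each gene and genotype above the floor. Dcn in WT, which held 8 counts in all, is left out. Right, Lum counts per Dcn count in each knockout library on a log axis, with circles for replicates 1 and 2 and triangles for 3 and 4. Lum is lower in replicates 3 and 4 in every genotype, Dcn and Igfbp7 are higher, and the Lum to Dcn ratio falls from 151.3 to 187.6 in replicates 1 and 2 to 16.2 to 21.2 in replicates 3 and 4 of both knockouts.

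The genes most like each one were sought by Pearson correlation of log2 CPM over the 12 libraries, among 11590 genes with a mean of at least 1 CPM, and the 3 highest with a symbol are named. The coefficients describe libraries that share genotype and replicate. For Dcn they were Ccdc8 (0.961), Cox7b2 (0.960) and Eya1 (0.928), all with VAMP7KO above ATG5KO above WT, as in Ccdc8 at 33.5 ± 1.41, 21.0 ± 0.505 and 11.5 ± 1.90 CPM (SD, n = 4). For Lum they were Ccn5 (0.980), which encodes a secreted matricellular protein, Nxn (0.978) and Neb (0.977). Ccn5 was at 12.9 ± 5.64 CPM in VAMP7KO, 7.68 ± 3.47 in ATG5KO and 2.56 ± 1.13 in WT.

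For Mgp the most similar named genes were Dusp22 (0.987), a phosphatase, Dhrs2 (0.987) and Prr32 (0.987). Dusp22 and Prr32 had no count in any ATG5KO library, and Dhrs2 had at most 1. For Igfbp7 they were Mfsd6 (0.998), Pear1 (0.996) and RGD1307595 (0.995). Pear1 was at 8.97 ± 0.837 CPM (SD, n = 4) in ATG5KO and had at most 1 count in a WT library and none in VAMP7KO. Mgp and Igfbp7 themselves had a correlation of -0.987, which follows from Mgp being at the floor where Igfbp7 was read, and the 4 pairs of Dcn or Lum with Mgp or Igfbp7 lay between -0.143 and 0.218.

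The surroundings of these genes were read from 8 lists of 156 symbols on the proteoglycan, IGF, Gla protein, BMP, TGF-beta, receptor, glycosaminoglycan and collagen or elastic fibre systems. Only 43 of the symbols have an identifier in the tables used here, all of them because the study listed the gene as changed in these libraries. The counts are therefore not independent evidence of a change or its direction. The study's list for ATG5KO could be read only in part, so the balance of rises and falls also depends on which part was read. Apart from the 4 genes, 36 were tested. In VAMP7KO 15 rose, 13 fell and 8 did not pass (median log2 fold change 0.25, against 0.00370 over all genes tested). In ATG5KO 22 rose, 7 fell and 7 did not pass (median 1.12, against 0.00782). Between the knockouts 6 were higher in VAMP7KO, 20 lower and 10 did not pass (median -0.71, against -0.00588). Without the replicate block, 6 and not 15 rose in VAMP7KO.

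Among the other small leucine-rich proteoglycans, 3 were tested, and the order of genotypes was not that of Dcn and Lum. All 3 rose in ATG5KO, while in VAMP7KO 1 rose and 2 fell. Fmod (fibromodulin, which binds the same collagen fibrils) was at 94.1 ± 7.03 CPM in WT, fell in VAMP7KO (log2 fold change -0.63, SE 0.0926) and rose in ATG5KO (0.65, SE 0.0919). Prelp, a proteoglycan that links matrix to basement membrane, fell in VAMP7KO (-1.14, SE 0.292) and rose in ATG5KO (5.67, SE 0.207), from 0.790 ± 0.461 to 40.3 ± 22.6 CPM. Podnl1 rose in both (2.33, SE 0.536 in VAMP7KO and 3.49, SE 0.544 in ATG5KO).

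Of the IGF genes beside Igfbp7, 5 were tested, of which 1 rose and 3 fell in each knockout. Igfbp4, which binds IGFs, fell in VAMP7KO (-1.13, SE 0.213) and rose in ATG5KO (1.52, SE 0.205), the direction of Igfbp7 in the latter. Igfbp6 rose in VAMP7KO (0.91, SE 0.183) and was at 0.20 (SE 0.180) in ATG5KO. Igfbpl1, at 20 to 24 counts per WT library, had no count in ATG5KO, where it was at least 5.95-fold lower. Htra1, a protease that cleaves IGF-binding proteins, and Stc2, a stanniocalcin, fell in both.

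The Gla protein list held, beside Mgp, only 2 named genes. Gas6, another Gla protein and a ligand of TAM receptors, rose in both knockouts (0.68, SE 0.170 and 1.08, SE 0.172). Vkorc1, the enzyme that recycles vitamin K, rose in ATG5KO (1.05, SE 0.170), in which Mgp was at the floor, and was at 0.15 (SE 0.169) in VAMP7KO. Among the BMP genes 3 were tested, of which none passed in VAMP7KO. In ATG5KO the ligand Bmp4 rose (2.46, SE 0.300), the receptor Acvrl1 was at least 8.55-fold higher than in WT, where it had no count, and Id4, a transcriptional regulator of the Id family, was at least 40.8-fold lower.

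In the TGF-beta list all 4 tested genes rose in VAMP7KO and 2 rose in ATG5KO. Ccn2, a secreted target of TGF-beta signalling, rose in VAMP7KO (2.05, SE 0.138) and was at 0.02 (SE 0.133) in ATG5KO. Tgfb2 rose in both (0.76, SE 0.166 and 1.12, SE 0.166). Among 3 tested receptors that bind decorin or lumican, Met rose in ATG5KO (1.67, SE 0.155), Itga2 fell in VAMP7KO (-2.53, SE 0.548) and Cd14 fell in both (-1.03, SE 0.162 and -1.25, SE 0.164). Of the enzymes that build the glycosaminoglycan chain, Dse, which forms the dermatan sulphate of decorin, fell in VAMP7KO (-0.52, SE 0.156) and rose in ATG5KO (1.22, SE 0.156), and Chst14, which sulphates it, rose in both (0.58, SE 0.163 and 1.03, SE 0.161).

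The 14 tested genes of collagen and elastic fibres held 7 that rose and 5 that fell in VAMP7KO, and 9 that rose and 2 that fell in ATG5KO. Col1a1 and Col3a1, chains of the fibrillar collagens to which decorin and lumican bind, rose in both (Col1a1 0.51, SE 0.133 and 1.39, SE 0.136; Col3a1 2.45, SE 0.319 and 2.99, SE 0.324). Fbn1 (fibrillin) fell in VAMP7KO (-5.13, SE 0.579) and was at 0.42 (SE 0.382) in ATG5KO. Eln (elastin) was at least 2.92-fold lower in VAMP7KO and rose in ATG5KO (4.01, SE 0.527). Thbs2 fell in VAMP7KO (-2.44, SE 0.325) and rose in ATG5KO (2.50, SE 0.313).

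**Figure D4:**
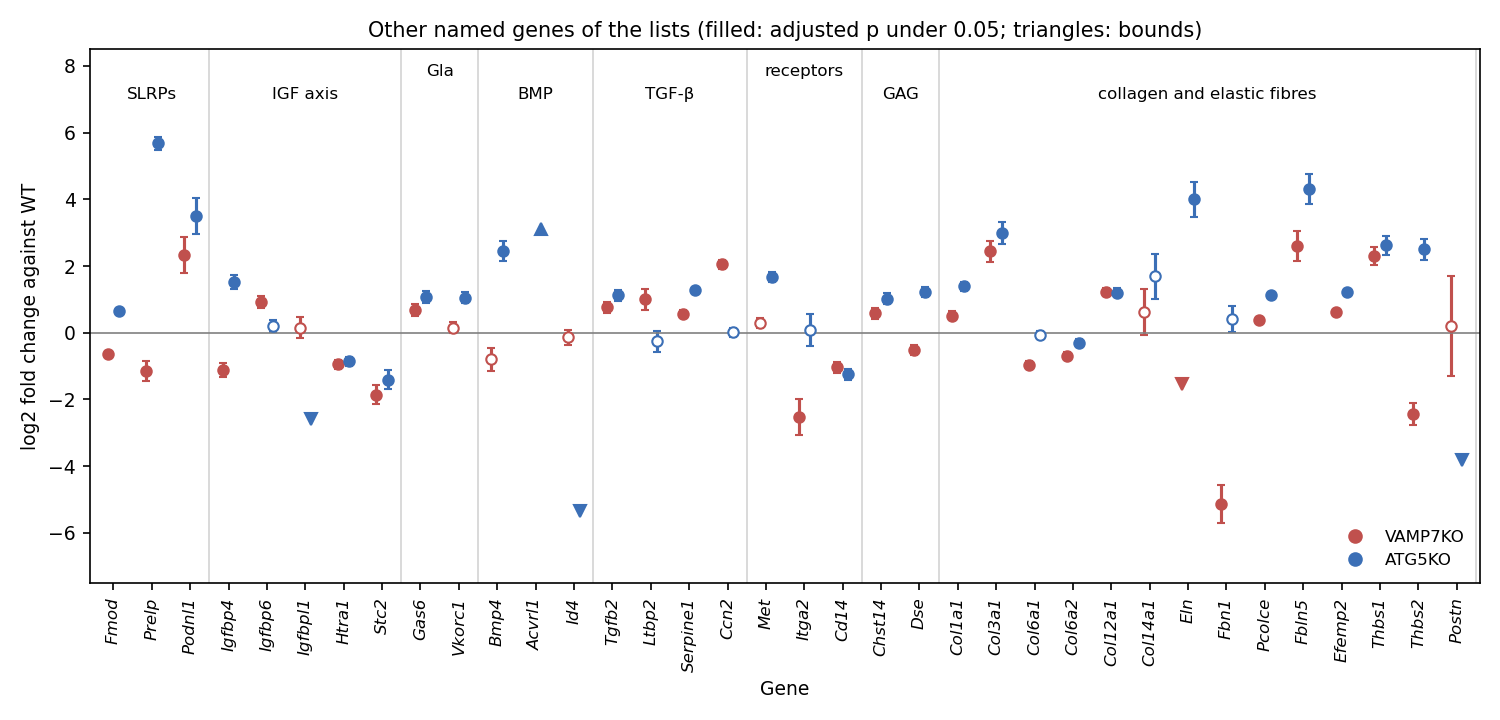
Log2 fold change against WT of the 36 tested genes of the 8 lists other than the 4 genes, in VAMP7KO (red) and ATG5KO (blue), which share the 4 WT libraries; bars are standard errors, triangles are bounds where 1 group is at the floor, and filled symbols passed an adjusted p of 0.05. More blue than red symbols lie above 0 (22 against 15 rose), and Fmod, Prelp, Igfbp4, Dse, Eln and Thbs2 passed the test in opposite directions in the 2 knockouts. The genes have a symbol because the study listed them as changed, and its list for ATG5KO was read only in part. The balance of directions is therefore not independent evidence.

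Around Dcn and Lum, 8 other genes of band 7q13 have a symbol and were tested. In ATG5KO 5 rose, 2 fell and 1 did not pass, against 23.6% and 22.7% of all genes tested that rose and fell. In VAMP7KO 1 rose, 2 fell and 5 did not pass, against 10.5% and 12.3%. These genes have a symbol because the study listed them as changed in these libraries, so the band as a whole was not read. Timp3, an inhibitor of matrix proteases, was at least 89.4-fold higher in ATG5KO than in WT and had at most 4 counts in a VAMP7KO library. Rfx4, a transcription factor, fell in VAMP7KO, from 3.21 ± 0.977 to 0.671 ± 0.0630 CPM (SD, n = 4).

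Markers of cell types were read beside these results. Each marker has an identifier here only because the study listed the gene as changed in these libraries, and its list for ATG5KO was read only in part. Their counts and directions are therefore not independent evidence of a shift between cell types. Krt8, the only one of 11 epithelial markers with an identifier here, was at 777.1 ± 106.7 CPM in WT, 502.5 ± 55.6 in VAMP7KO and 688.3 ± 105.5 in ATG5KO (SD, n = 4). The summed level of the 7 fibroblast markers with an identifier, of 11, was 586.2 to 1555 CPM in WT, 1078 to 3017 in VAMP7KO and 2296 to 4061 in ATG5KO. Of them 3 rose and 1 fell in VAMP7KO, and 6 rose in ATG5KO, where Thy1 went from 0.334 ± 0.384 to 143.4 ± 73.5 CPM. The other 3 in VAMP7KO and the other 1 in ATG5KO did not pass, and the median log2 fold change of the 7 was 0.00540 in VAMP7KO and 2.99 in ATG5KO. The sums of VAMP7KO overlap those of WT and of ATG5KO, and most of each sum is Col1a1 and Col3a1. Between the knockouts 5 markers were lower in VAMP7KO, Twist1 was higher and Col3a1 did not pass. Acta2 and Des, of 5 smooth muscle markers, summed to 9.36 to 14.7 CPM in WT, 45.8 to 110.8 in VAMP7KO and 68.0 to 81.0 in ATG5KO, but went different ways. Acta2 rose in VAMP7KO (log2 fold change 2.96, SE 0.339) and was at 0.02 (SE 0.342) in ATG5KO, whereas Des fell in VAMP7KO (-1.26, SE 0.339) and rose in ATG5KO (4.63, SE 0.289). Cdh5, of 3 endothelial markers, was at most 0.608 CPM, and the leukocyte marker Ptprc was at 2.76 to 12.5 CPM in WT, at 0 in VAMP7KO and at most 0.0694 in ATG5KO. The part of cell type in the results for the 4 genes was not tested, and in these bulk libraries more cells of a type and more RNA per cell cannot be told apart.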

How the data were processed

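NRK cells of the 3 genotypes were sequenced from 600 ng of total RNA per library with a stranded mRNA kit, as 50-base reads. Per the study's methods, the authors used cutadapt 4.2 for trimming (Phred 20, at least 40 bases kept) and bowtie 2.2.8 against rRNA, mapped to mRatBN7.2 with STAR 2.7.10b, counted with htseq-count 0.13.5 (Ensembl release 110) and tested with DESeq2 1.34.0, adjusting for a batch that is not named. The deposited values are raw read counts per gene. A separator missing from the header was restored by position. Groups and replicate numbers came from the labels.

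Counts were tested with edgeR 4.0.16 (limma 3.58.1, R 4.3.3): TMM, filterByExpr, glmQLFit and glmQLFTest over the 12 libraries, with replicate numbers as blocks, and Benjamini-Hochberg adjustment over 13141 genes. Deviations from the genotype mean correlated between libraries of one number in all 12 pairs (0.562 to 0.681), but as much between numbers of one pair of replicates (0.529 to 0.677), so the numbers pair the libraries no further than the split into 1 and 2 against 3 and 4. No 2 libraries of one genotype held counts within sampling noise of each other. The split was tested as an interaction with genotype, without the block. Each SE of a log2 fold change or log2 difference was back-calculated, as the absolute value divided by the square root of the quasi-likelihood F statistic. It is therefore rough where a group is near the floor, as for Dcn in WT. Correlations used a prior count of 2. Alternatives were DESeq2 1.42.0 size factors, its Wald test, no filter, other blocks, subsets of libraries and leaving out each library. The test was also tested on simulated data.

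The named genes are the 4 genes, Vamp7, every listed gene with a symbol in the study's gene tables as far as they were read (1976 of 20842 identifiers, 1737 of them tested), and the 3 named genes most like each of the 4. The study's table for VAMP7KO was used, but of that for ATG5KO only the readable part. A gene without a symbol here may therefore still be one that the study listed. The genes, lists and tests were chosen with earlier results of these data known. Columns of the authors' own comparisons were not used. Promoters came from RefSeq (GRCr8). Tables and figures were made with matplotlib 3.10.9, scipy 1.17.1, numpy 2.4.6 and pandas 2.3.3 in Python 3.11.15.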

Additional observations from a re-analysis of the deposited data

Results flagged for a closer look

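For 3 results the effect of a knockout differed between replicates 3 and 4 and replicates 1 and 2, by the interaction term of the quasi-likelihood fit in edgeR, adjusted by Benjamini-Hochberg over all genes. The log2 difference was -1.54 for Mgp in VAMP7KO (adjusted p = 1.45e-05), -0.66 for Lum in VAMP7KO (adjusted p = 0.0458) and -0.86 for Lum in ATG5KO (adjusted p = 0.00739). The sign is that of the effect in replicates 3 and 4 minus the effect in replicates 1 and 2, so each effect was smaller in replicates 3 and 4. The split was seen in these values before it was tested, so the p-values are not independent of the observation. The Lum value for VAMP7KO missed the threshold in edgeR's test with DESeq2's size factors (adjusted p = 0.0522). It also missed it in 7 of 12 fits that left out 1 library, and the Lum value for ATG5KO missed it without WT replicate 4. No label names what separates the replicates, and the cause was not tested.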

How the results depend on the processing

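Without the replicate block, the genes called fell from 3004 to 1024 for VAMP7KO against WT, from 6081 to 3102 for ATG5KO against WT and from 5903 to 2997 between the knockouts, where 2 and not 4 of the 4 genes were called, and 6 listed genes rose in VAMP7KO in place of 15. The block changed no other call of the 4 genes than that of Mgp in VAMP7KO against WT and those of Dcn and Lum between the knockouts. With replicates 1 and 2 only, 5249 genes were called for VAMP7KO, and with replicates 3 and 4 only, 5173. The log2 fold change of Lum in ATG5KO was 3.48 with replicates 3 and 4 only. That of Mgp in VAMP7KO was 0.12 with replicates 3 and 4 only, against 0.90 over all. With replicates 1 and 2 only, the log2 bound of Igfbp7 was 6.33 in ATG5KO against WT and -6.13 in VAMP7KO against ATG5KO. With DESeq2's size factors the Lum difference between replicates in VAMP7KO was -0.64 (adjusted p = 0.0522). The causes were not tested.

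Leaving out each library gave 1923 to 3224 calls for VAMP7KO against WT (1923 without VAMP7KO replicate 1 and 1954 without WT replicate 1), and 1312 to 2722 for its interaction with the replicate split (1312 without VAMP7KO replicate 3, 1335 without WT replicate 3 and 1419 without WT replicate 4). The fitted log2 fold change of Dcn ranged from 4.54 to 6.20 in VAMP7KO and from 3.10 to 4.76 in ATG5KO, both highest without WT replicate 3. There all WT libraries were at the floor, so the highest values are not estimates and only the bounds of 21.0-fold and 7.74-fold hold. Between the knockouts the fitted value ranged from 1.32 to 1.61. The Dcn interaction ranged from -4.04 to 3.52 for VAMP7KO and from -4.08 to 3.49 for ATG5KO, positive only without WT replicate 3 (3.52 and 3.49). The lowest values came without WT replicate 1. Either omission left a WT library with no Dcn count alone in its pair, so these extremes do not measure a size. The Lum interaction ranged from -0.82 to -0.48 for VAMP7KO and from -0.99 to -0.64 for ATG5KO. The log2 fold change of Mgp in VAMP7KO ranged from 0.53 to 1.21. Bounds were not recomputed under other tests or blocks, which do not enter them. Nor were they recomputed without the filter or with only 2 genotypes, which enter them through the scaling of library size. Depth limits Dcn in WT, at 8 counts in all.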
